A study of Mus musculus with 95 samples.

Results

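The genes described here are 10 genes of the response to oxidative stress and to metals, namely Hmox1, Nqo1, Gclc, Gclm, Txnrd1, Cat, Gpx3, Sod2, Mt1 and Mt2, in kidneys of SNF1 mice, a lupus-prone strain bred as the first-generation cross (SWR X NZB F1). A gene was taken as measured where a probe set of the array has it as its only gene symbol, which held for 9 of the 10 genes and 14 probe sets, of 17097 genes and 45037 probe sets in all. Mt2 is not among the gene symbols of the array annotation. It was read from 1 probe set that a supplementary list of the study names, and since that list is ordered by the change at week 14, Mt2 is not counted among the 9 genes and its week 14 difference is a description with no test. RNA of 95 kidneys was hybridized to HT MG-430 PM arrays of Affymetrix, 1 array a mouse, and all values are log2 expression values. The untreated mice were SNF1 females matched in age to the treated ones, with n = 7, 10, 9, 10, 10 and 5 at weeks 0, 2, 4, 8, 12 and 14. The pristane mice were SNF1 females that had received an intraperitoneal injection of pristane, a hydrocarbon oil, when 9 weeks old, with n = 9, 10, 8, 8 and 9 at weeks 2, 4, 8, 12 and 14. No group was given the injection without pristane, so the injection and the oil cannot be told apart, and week 0 has no pristane mice.

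Cells meet oxidants with enzymes that remove them and with genes that are switched on by them. The transcription factor NRF2 (gene Nfe2l2), held back by KEAP1, drives Hmox1, Nqo1, Gclc, Gclm and Txnrd1 through antioxidant response elements, whereas catalase (Cat), the mitochondrial superoxide dismutase (Sod2) and the plasma glutathione peroxidase (Gpx3), which the proximal tubule secretes, are abundant in the kidney without such a trigger. The metallothioneins Mt1 and Mt2 are small cysteine-rich proteins that bind zinc and copper. Their genes lie side by side and respond to metals through the factor MTF1 and to glucocorticoids.

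The promoters of Mt1 and Mt2 are shown because the probe sets read for these genes varied together from kidney to kidney, as described further on. Each stretch runs 5′ to 3′ from 250 bases before to 50 bases after the RefSeq start, on the plus strand of mouse build GRCm38.p6. Capitals mark every match to TGCNCNC, the core of the metal response element, on either strand, so a match on the other strand reads as GNGNGCA.
Mt1, chr8:94178839-94179138: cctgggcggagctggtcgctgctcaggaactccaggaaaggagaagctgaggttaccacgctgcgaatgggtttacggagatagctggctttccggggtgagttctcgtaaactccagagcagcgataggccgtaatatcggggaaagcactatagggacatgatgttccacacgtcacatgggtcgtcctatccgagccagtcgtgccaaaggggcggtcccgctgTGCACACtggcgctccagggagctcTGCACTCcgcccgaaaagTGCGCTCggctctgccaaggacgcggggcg
Mt2, chr8:94172368-94172667: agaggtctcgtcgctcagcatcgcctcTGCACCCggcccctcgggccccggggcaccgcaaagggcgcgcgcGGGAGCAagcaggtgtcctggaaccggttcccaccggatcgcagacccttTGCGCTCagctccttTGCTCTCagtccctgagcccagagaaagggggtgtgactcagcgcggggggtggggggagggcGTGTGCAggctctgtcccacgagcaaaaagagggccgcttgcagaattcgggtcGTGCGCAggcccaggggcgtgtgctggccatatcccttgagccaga
The starts used for the windows of Mt2 and Mt1 lie 6471 bases apart. The listed span of the Mt1 gene begins at 94178883, inside its window and before the start used. The window of Mt1 holds 3 matches and that of Mt2 holds 6. At least 1 match was found in 51.0% of 32851 promoter windows of the same length, at least 3 in 7.1% and at least 6 in 0.225%. Promoters were found for 8 of the 10 genes. Among the other genes the core was matched 3 times in the window of Gclm, 2 times in that of Nqo1, 0 to 1 times in the 3 windows of Txnrd1, and 0 times in those of Cat, Gpx3 and Sod2. The core of the antioxidant response element, TGANNNNGC on either strand, was matched in 41.3% of all windows, and here 1 time each in those of Gclm and Mt2 and in 2 of the 3 windows of Txnrd1. The cores were counted separately, so that their matches may overlap. These matches are letters in a window and not sites of binding.

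Array medians ran from 4.22 to 4.57, and none of the 14 probe sets lay at the common floor of 2.21 on any array. The number of arrays in each group limits the precision. Every kidney was checked against markers fixed as lists, each given as the mean log2 deviation of its genes from their means over all kidneys. Untreated week 12 mouse 10 stood apart from its group, with the macrophage list at 3.09, where the group's median was -0.74, and the tubular injury list at 2.09, where the group's median was -0.59. Among the pristane kidneys of week 14, mouse 1 and mouse 2 were nearer to untreated kidneys, with the tubular injury list at 1.35 and -0.12 where the group's median was 3.33. Weekly comparisons that rest on these kidneys are given with and without them. Correlations between genes or with the marker lists were not redone without untreated week 12 mouse 10 alone.

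At week 14, Hmox1, which encodes the enzyme that opens heme, was 2.24-fold higher in pristane than in untreated kidneys, whereas Nqo1, a quinone reductase, was 1.69-fold lower and Sod2 was 1.94-fold lower. In limma's test with Benjamini-Hochberg adjustment over all probe sets, 1 of the 9 measured genes rose, 2 fell and 6 did not pass at an adjusted p under 0.05. This is 33.3% of 9 genes, beside 8.31% of all probe sets (4.57% higher and 3.73% lower). The median log2 fold change of the 9 genes was -0.22, that of all probe sets was 0.00, and 6 of the 9 passed at an unadjusted p under 0.05, beside 23.7% of all probe sets. At weeks 2, 4, 8 and 12, 0 of the 9 genes passed limma's test (1, 1, 0 and 1 at an unadjusted p under 0.05), where 0.249%, 0.138%, 0.0866% and 0.0244% of all probe sets passed, in that order of weeks (7.15%, 4.88%, 3.63% and 6.17% unadjusted). With a fold change over 2 asked for as well, Hmox1 alone was called at week 14, beside 2.64% of all probe sets.

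**Figure D1:**
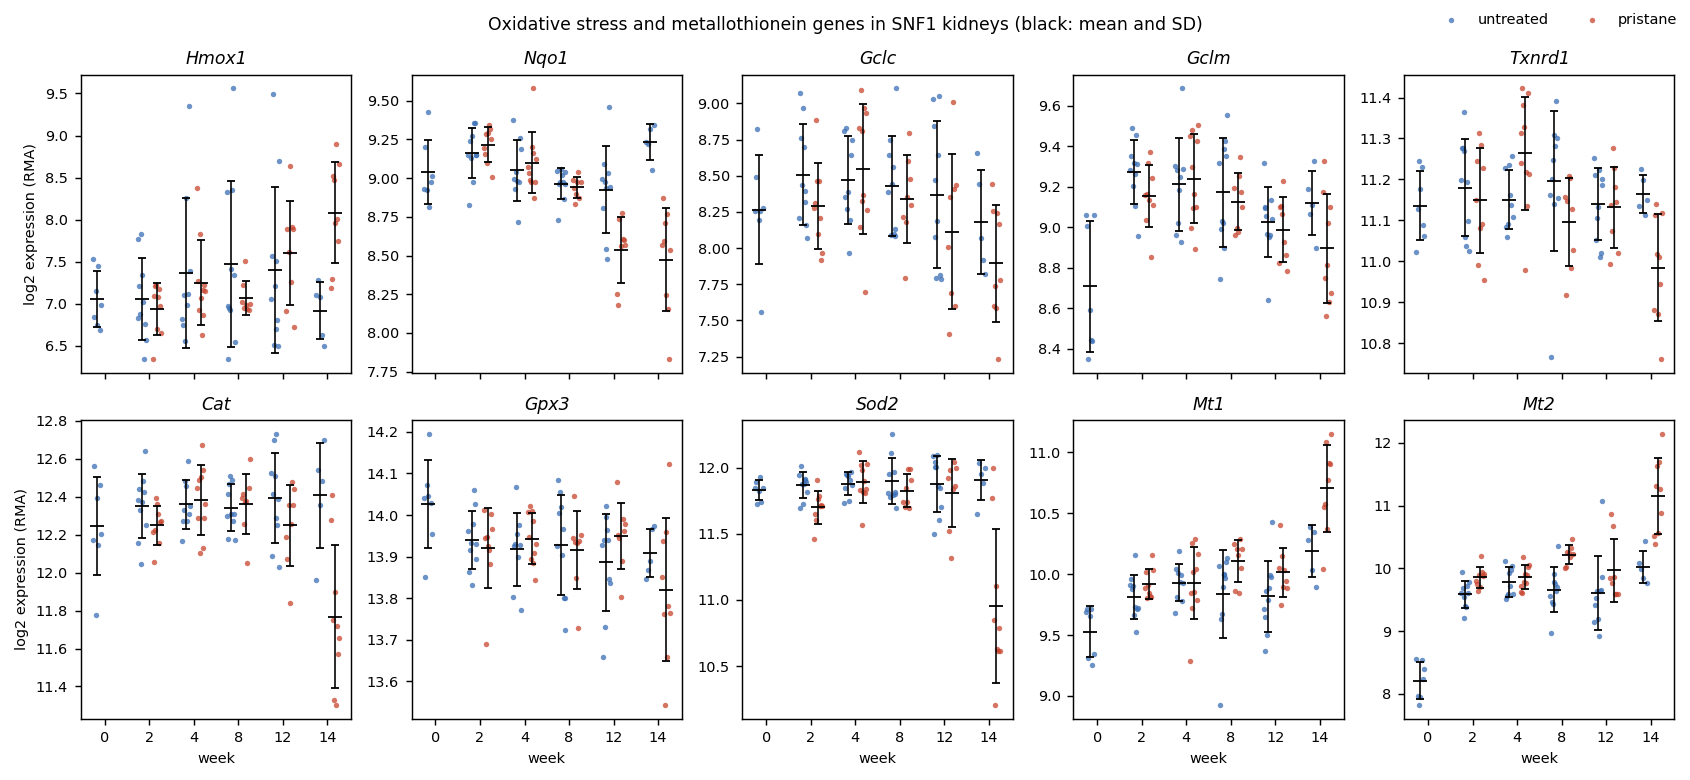
Log2 expression of each gene (vertical axis) by week (horizontal axis) in untreated (blue) and pristane (red) kidneys, 1 point a kidney, with the mean and SD of each group in black. At week 14 the red points of Hmox1, Mt1 and Mt2 sit high and those of Nqo1, Cat and Sod2 low, the Sod2 points of 2 pristane mice lie at 11.77 and 12.00 with the untreated ones, and the Mt2 points of week 0 lie below all others.

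Hmox1 lay at 7.11, 7.28, 7.08, 6.62 and 6.50 in the 5 untreated kidneys of week 14. In the 9 pristane kidneys of that week it lay at 7.19, 7.29, 8.51, 8.47, 7.96, 8.90, 8.01, 7.75 and 8.67. All pristane kidneys but mouse 1 were above every untreated kidney, and mouse 1 lay within the untreated range. The log2 fold change was 1.16 (standard error 0.289, 95% interval 0.54 to 1.79, limma's adjusted p = 0.0327). When single mice were dropped in turn, 11 of the 14 refits lost the call (highest adjusted p = 0.0900), all but those without pristane mouse 1, 2 or 8, with a log2 fold change of 1.06 to 1.28 throughout. The call is also lost with the level of 10 adrenal genes as a covariate (log2 fold change 1.03, adjusted p = 0.101). At week 14 the adrenal list had a median of -1.42 and a highest value of -1.25 in untreated kidneys, and a median of -1.40 and a highest value of 1.19 in pristane kidneys.

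High Hmox1 was not particular to pristane kidneys. Of the 51 untreated kidneys, 3 had more Hmox1 than the highest pristane kidney of week 14, at 9.35 (week 4, mouse 8), 9.56 (week 8, mouse 8) and 9.50 (week 12, mouse 3). A further 4 lay above 8.01, the median of the pristane kidneys of week 14, and none of these 7 was sampled at week 14. The SD of Hmox1 within a group ran from 0.203 in pristane week 8 kidneys to 0.991 in untreated week 8 kidneys. In the 3 highest kidneys the tubular injury list lay at -0.51, -0.70 and -0.53 and the macrophage list at -1.25, -0.61 and -1.07, all below the mean of all kidneys. The next highest untreated kidney, week 12 mouse 10 at 8.69, had the tubular injury list at 2.09 and the macrophage list at 3.09.

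Nqo1 lay at 9.23, 9.22, 9.32, 9.05 and 9.34 in untreated kidneys of week 14. In pristane kidneys it lay at 8.57, 8.87, 8.59, 8.71, 8.24, 8.77, 8.15, 7.83 and 8.54. The groups did not overlap, as held for 2.68% of all probe sets at this week, and the 2 pristane kidneys with the lowest injury lists, mouse 1 and mouse 2 at 8.57 and 8.87, were also below all untreated kidneys. The log2 fold change was -0.76 (standard error 0.154, 95% interval -1.09 to -0.43, limma's adjusted p = 0.0170), and the call held in 13 of the 14 refits with a mouse dropped but not without untreated mouse 3 (adjusted p = 0.0538).

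Nqo1 was also the gene with the smallest adjusted p at week 12, where it lay between 8.18 and 8.77, with a median of 8.58, in pristane kidneys and between 8.47 and 9.46, with a median of 8.96, in untreated kidneys. The log2 fold change of -0.39 (standard error 0.117) did not pass (limma's adjusted p = 0.541). Without untreated mouse 10 it was -0.39 with an adjusted p = 0.188, and 0 of the 9 genes passed, while the share of all probe sets that passed went from 0.0244% to 1.35%. With all groups in a single fit, or with untreated mice of all weeks as controls, Nqo1 was called lower at week 12, beside 2.10% and 4.92% of all probe sets. In the order of the 11 group means, untreated week 14 was highest at 9.23 ± 0.115 (SD), pristane week 12 (8.53 ± 0.212) and pristane week 14 (8.47 ± 0.334) were lowest, and the only neighbours farther apart than the larger of their SDs were untreated week 12 and pristane week 12.

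The other genes driven by NRF2 did not pass at week 14. Gclc and Gclm, the catalytic and the modifier subunit of the enzyme that limits glutathione synthesis, had log2 fold changes of -0.29 (95% interval -0.75 to 0.17, limma's adjusted p = 0.486) and -0.22 (-0.51 to 0.06, adjusted p = 0.352). Txnrd1, the cytosolic thioredoxin reductase, had -0.18 (-0.31 to -0.05, adjusted p = 0.0816), with 6 of 9 pristane kidneys below all untreated ones. Thus of the 5 genes Hmox1 alone was called higher and Nqo1 alone lower, and whether their changes differ from each other was not tested.

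**Figure D2:**
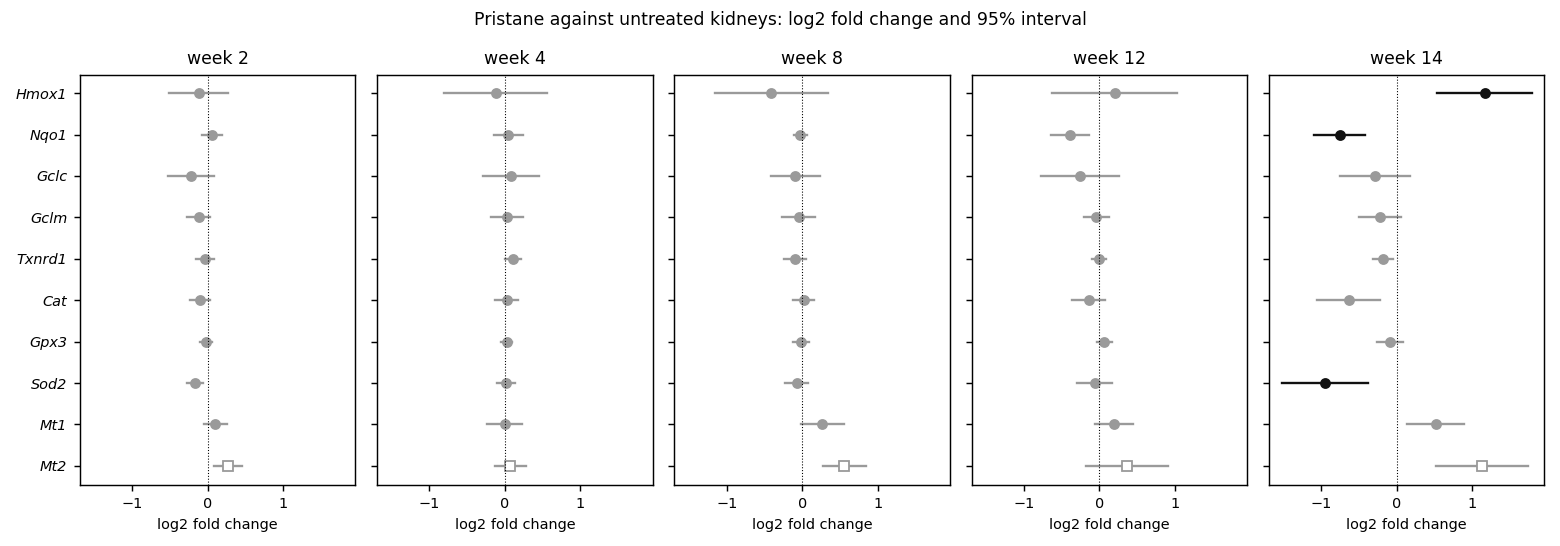
Log2 fold change of pristane over untreated kidneys (horizontal axis) with its 95% interval for each gene (vertical axis), 1 panel a week. Black marks genes past an adjusted p of 0.05, namely Hmox1, Nqo1 and Sod2 at week 14, grey marks the others, and the open square is Mt2, whose week 14 value was not tested.

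Sod2, which turns mitochondrial superoxide into hydrogen peroxide, lay at 11.65, 12.03, 11.95, 11.89 and 12.00 in untreated kidneys of week 14. In pristane kidneys it lay at 11.77, 12.00, 10.85, 10.21, 11.11, 10.63, 10.61, 10.79 and 10.62. Mouse 1 and mouse 2 were within the untreated range and the other 7 pristane kidneys were below it. The log2 fold change was -0.95 (standard error 0.265, 95% interval -1.53 to -0.38, limma's adjusted p = 0.0458). The call is lost in 12 of the 14 refits with a mouse dropped (highest adjusted p = 0.110), all but those without pristane mouse 1 or 2, with a log2 fold change of -1.08 to -0.86 throughout. It is also lost with the adrenal covariate (log2 fold change -0.80, adjusted p = 0.136). The other 3 probe sets of Sod2 had log2 fold changes of -0.63, -0.45 and -0.26 and did not pass (adjusted p = 0.0602, 0.0631 and 0.274), and correlations between the 4 probe sets over the 95 kidneys ran from 0.472 to 0.858.

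Cat, which breaks down hydrogen peroxide in peroxisomes, followed the same kidneys. It lay at 11.96, 12.54, 12.36, 12.48 and 12.70 in untreated kidneys of week 14 and at 12.28, 12.41, 11.75, 11.33, 11.90, 11.30, 11.72, 11.57 and 11.66 in pristane kidneys. Pristane mouse 1 and mouse 2 again lay within the untreated range and the other 7 below it. By the probe set of highest mean the log2 fold change was -0.64 (standard error 0.191, limma's adjusted p = 0.0571), which passed without pristane mouse 1 (adjusted p = 0.0261) or mouse 2 (adjusted p = 0.0141). The second probe set of Cat was called lower, with a log2 fold change of -1.10 (adjusted p = 0.0259), so that 4 of the 14 probe sets passed. Gpx3 had a log2 fold change of -0.09 (95% interval -0.26 to 0.08, adjusted p = 0.588) and means of 13.82 to 14.03 over the 11 groups, with no neighbours in that order farther apart than the larger SD.

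In the order of group means, pristane week 14 was lowest for Sod2 at 10.95 ± 0.582 (SD), followed by pristane week 2 at 11.70 ± 0.124, and this was the only gap over the larger SD. For Cat it was lowest as well, at 11.77 ± 0.379, below untreated week 0 at 12.25 ± 0.261, again the only such gap. At week 2 the log2 fold change of Sod2 was -0.16 (standard error 0.0503, 3 of 9 pristane kidneys below all untreated ones), which did not pass (limma's adjusted p = 0.351).

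Mt1 lay at 10.28, 10.39, 10.03, 10.35 and 9.90 in untreated kidneys of week 14. In pristane kidneys it lay at 10.04, 10.55, 10.58, 11.08, 10.37, 10.77, 10.91, 10.90 and 11.15. All pristane kidneys but mouse 1 and mouse 5 were above every untreated kidney. The log2 fold change of 0.52 (standard error 0.173, 95% interval 0.14 to 0.89) did not pass (limma's adjusted p = 0.0827), although it did without pristane mouse 1 (adjusted p = 0.0179). The probe set of Mt1 has the array maker's suffix for probe sets that match more than 1 transcript. A second probe set of Mt1, which correlated with it at 0.471 over the 95 kidneys, had a log2 fold change of 0.59 (adjusted p = 0.254).

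Mt2 lay at 10.08, 9.99, 9.85, 10.43 and 9.76 in untreated kidneys of week 14 and at 10.52, 10.38, 11.31, 11.62, 10.57, 11.69, 11.26, 10.88 and 12.14 in pristane kidneys. Only pristane mouse 2 lay within the untreated range, and the log2 difference was 1.13 (95% interval 0.52 to 1.74), which is a description since the probe set entered by this change. At week 8, which played no part in that choice, Mt2 lay between 10.01 and 10.46, with a median of 10.23, in pristane kidneys and between 8.97 and 10.36, with a median of 9.67, in untreated kidneys. A single untreated kidney, at 10.36, lay within the pristane range. The log2 fold change of 0.56 (standard error 0.134, 95% interval 0.27 to 0.84) did not pass over all probe sets (limma's adjusted p = 0.327). At week 2 it was 0.27 (standard error 0.0874, adjusted p = 0.389), and at weeks 4 and 12 it was 0.07 and 0.37 (adjusted p = 0.946 and 0.827). Untreated week 12 mouse 10 had the most Mt2 of any untreated kidney, at 11.07, and without it the week 12 value was 0.53 (adjusted p = 0.302).

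The metallothioneins were lowest at week 0 and highest in pristane kidneys of week 14. Of the 10 neighbouring pairs in the order of the 11 group means, 2 were farther apart than the larger of their SDs for each gene. For Mt2 these were pristane week 14 (11.15 ± 0.606, SD) above pristane week 8 (10.21 ± 0.150), and untreated week 2 (9.58 ± 0.217) above untreated week 0 (8.21 ± 0.299). For Mt1 they were pristane week 14 (10.70 ± 0.356) above untreated week 14 (10.19 ± 0.213), and untreated week 2 (9.82 ± 0.180) above untreated week 0 (9.53 ± 0.209). Mt2 lay at 8.55, 7.97, 7.82, 7.95, 8.54, 8.24 and 8.40 at week 0, and the lowest of the 88 later kidneys, untreated or pristane, lay at 8.92. A week 0 group wholly below the 44 later untreated kidneys was seen for 0.233% of all probe sets. The mean of the later untreated kidneys was 1.49 higher than that of week 0 for Mt2 and 0.36 higher for Mt1, on the log2 scale, and 11 later untreated kidneys lay below the highest week 0 value of Mt1. By the second probe set of Mt1 the later mean was 1.16 higher, and 10 later untreated kidneys lay below the highest week 0 value. Over the untreated kidneys of all 6 weeks, limma's F test called 2 of the 9 genes, Gclm (adjusted p = 0.00129) and Mt1 (adjusted p = 0.0114), beside 32.9% of all probe sets. These calls are by the probe set of highest mean. By other probe sets the F test also called Cat (adjusted p = 7.39e-05) and Sod2 (adjusted p = 0.000341 and 0.00485). A further probe set of Sod2 did not pass (adjusted p = 0.236). Gclm was lowest at week 0 as well, with a mean of 8.71 ± 0.324 (SD, n = 7) against 9.27 ± 0.158 (SD, n = 10) at week 2. Without week 0, 0 of the 9 genes were called, beside 10.8% of all probe sets. For Mt2 the F test over untreated weeks 0 to 12, without the week that entered its choice, gave an adjusted p = 9.29e-08, beside 31.5% of all probe sets called. With week 14 kept and week 0 left out, Mt2 did not pass the F test (adjusted p = 0.463). Batches of arrays are not given in the labels, so that week and any batch cannot be told apart here.

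Over the pristane kidneys of weeks 2 to 14, the F test called 8 of the 9 genes, all but Gpx3 (adjusted p = 0.200), beside 33.9% of all probe sets. Without week 14 it called Nqo1 alone (adjusted p = 1.07e-06), beside 14.4%. The mean of Nqo1 in pristane kidneys was 9.22, 9.10, 8.94 and 8.53 over weeks 2, 4, 8 and 12. The effect of pristane at week 14 differed from that at week 2 for 4 of the 9 genes by limma's interaction contrast, beside 11.9% of all probe sets. The differences of effects were 1.28 for Hmox1 (standard error 0.331, adjusted p = 0.0108), -0.81 for Nqo1 (0.151, adjusted p = 0.000995), -0.54 for Cat (0.178, adjusted p = 0.0466) and -0.79 for Sod2 (0.231, adjusted p = 0.0232). By the other probe sets of Sod2 they were -0.51, -0.36 and -0.16 and did not pass (adjusted p = 0.0541, 0.0780 and 0.650). The other probe set of Cat passed, at -0.98 (adjusted p = 0.00567). Both contrasts use the same week 14 kidneys as the comparison above. Between weeks 14 and 12, 0 of the 9 genes were called by limma (3 at an unadjusted p under 0.05), beside 0% of all probe sets (15.8% unadjusted), so that a step from week 12 to week 14 was not shown. Without pristane week 14 mouse 1 or mouse 2, Sod2 passed that contrast, beside 5.52% and 7.15% of all probe sets.

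From kidney to kidney within groups, Cat varied with Sod2 and Mt1 with Mt2, and Mt2 varied against Sod2. After each group's mean was removed, 14 of the 45 pairs of the 10 genes correlated over the 95 kidneys in a permutation test that shuffled kidneys within groups (adjusted p under 0.05 over the 45 pairs), 7 positively and 7 negatively. Cat and Sod2 correlated at r = 0.78 (rho = 0.74), and Mt1 and Mt2 at r = 0.57 (rho = 0.45), with an adjusted permutation p = 0.000225 for both values of r and 0.00045 for both values of rho, which rest on raw p-values of 1e-05, the smallest that 100000 permutations can give, but for the rho of Mt1 and Mt2 (raw p = 3e-05). The probe set read for Mt1 can match more than 1 transcript, and whether it also reads Mt2 was not tested. The other probe set of Mt1 was not among the pairs. Sod2 and Mt2 correlated at r = -0.54 (rho = -0.41, adjusted permutation p = 0.000225 and 0.00113). Hmox1 correlated with Txnrd1 at r = 0.41 (rho = 0.41, adjusted permutation p = 0.00144 and 0.00045), and Gclc with Gclm at r = 0.34 (rho = 0.34, adjusted permutation p = 0.00522 and 0.0063). Without the 2 farthest kidneys these values of r were 0.72, 0.52, -0.48, 0.44 and 0.31. Without the pristane kidneys of week 14 they were 0.70, 0.52, -0.41, 0.41 and 0.27, and 7 of the 14 pairs still passed, whereas Gclc with Gclm did not (adjusted permutation p = 0.0582). In untreated kidneys alone 4 of the 14 pairs passed, and neither Sod2 with Mt2 (r = -0.32, adjusted permutation p = 0.207) nor Gclc with Gclm (r = 0.25, adjusted permutation p = 0.211) was among them.

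**Figure D3:**
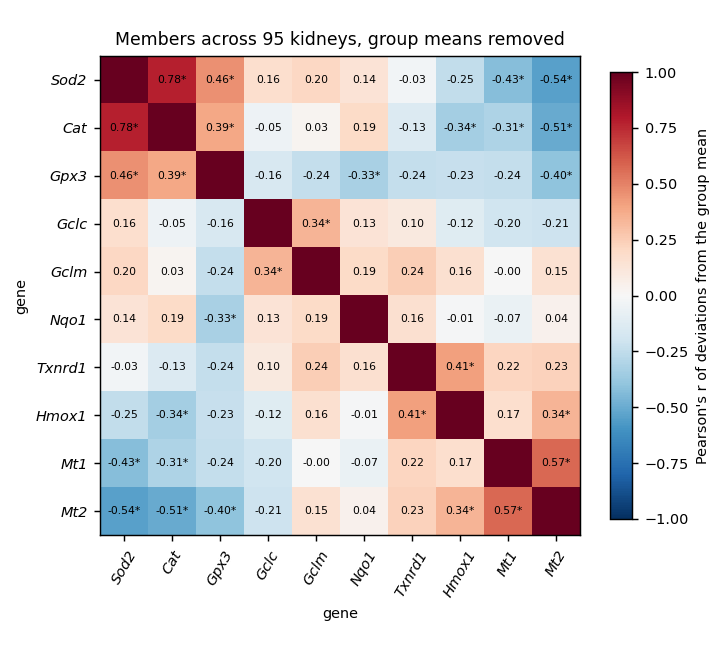
Pearson's r between the deviations from the group mean of each pair of genes over 95 kidneys, from -1 (blue) to 1 (red), both axes listing the genes and a star marking an adjusted permutation p under 0.05. Cat and Sod2 (0.78) and Mt1 and Mt2 (0.57) form the strongest positive pairs, and Sod2 and Mt2 the strongest negative one (-0.54).

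Transcripts that mark macrophages, injured tubules and the proximal tubule also changed at week 14. Of 8 macrophage genes 7 rose and of 4 tubular injury genes 3 rose, led by Lcn2 and Havcr1 with log2 fold changes of 5.28 and 4.79 (limma's adjusted p = 0.00859 and 0.0153), and of 6 proximal tubule genes 2 fell, Slc5a2 and Aqp1. Among all probe sets 4.57% were called higher and 3.73% lower at that week. The macrophage list ran from -0.62 to 0.10 in untreated and from 1.10 to 3.09 in pristane kidneys of week 14, the tubular injury list from -0.81 to -0.13 and from -0.12 to 4.59, and the proximal tubule list from -0.03 to 0.20 and from -1.96 to 0.14. No macrophage or proximal tubule marker lay at the floor, and of the injury markers Krt20 did in 70 of 95 kidneys. Pristane mouse 1 and mouse 2, whose Sod2 and Cat lay within the untreated range, had the highest proximal tubule lists of their group, at 0.06 and 0.14. The part of these cell types in the results was not tested. In whole kidney RNA, fewer cells of a type and less RNA per cell cannot be told apart.

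Between kidneys of the same group, Sod2 correlated with the tubular injury list at r = -0.73 (rho = -0.54), with adjusted permutation p = 0.0002 and 0.0006 over 60 relations of the 10 genes to 6 marker lists, of which 21 passed. The value of r was -0.58 without the 2 farthest kidneys and -0.48 without the pristane kidneys of week 14 (adjusted permutation p = 0.009). With the proximal tubule list Sod2 correlated at r = 0.72 (rho = 0.30, adjusted permutation p = 0.0004 and 0.0432), and this rested on the pristane kidneys of week 14, since without them r was 0.19 (adjusted permutation p = 0.304). Gclc correlated with the proximal tubule list at r = 0.38 (rho = 0.48, adjusted permutation p = 0.000343 and 0.0006), and at 0.36 without the 2 farthest kidneys and 0.52 without the pristane kidneys of week 14. Hmox1 correlated with the tubular injury list at r = 0.37 (adjusted permutation p = 0.00426), and at 0.45 without the 2 farthest kidneys. This relation did not pass by rho (0.24, adjusted permutation p = 0.0735). Nor did it pass without the pristane kidneys of week 14 (r = 0.29, adjusted permutation p = 0.0940). Nqo1 passed with none of the 6 lists (lowest adjusted permutation p = 0.179). Mt2 had its largest r with the tubular injury list, at 0.61 (rho = 0.29, adjusted permutation p = 0.000343 and 0.0427). This r was 0.50 without the 2 farthest kidneys and 0.52 without the pristane kidneys of week 14. By r, but not by rho, Mt2 also passed with the macrophage list (0.44, adjusted permutation p = 0.0162) and the proximal tubule list (-0.39, adjusted permutation p = 0.0294). Without the 2 farthest kidneys these values of r were 0.24 and -0.36. Without the pristane kidneys of week 14 neither relation passed (r = 0.42 and -0.03, adjusted permutation p = 0.0735 and 0.873). Mt2 correlated with a list of 7 glucocorticoid-responsive genes at r = 0.51 (rho = 0.39, adjusted permutation p = 0.000343 and 0.00276), and at 0.40 without the 2 farthest kidneys and 0.49 without the pristane kidneys of week 14. At week 8 the glucocorticoid list lay between -0.44 and -0.10 in untreated and between 0.04 and 0.58 in pristane kidneys. Of its 7 genes 2 rose at that week, Zbtb16 and Fkbp5, beside 0.0866% of all probe sets called. At week 14 the glucocorticoid list lay between -0.40 and 0.32 in untreated and between -0.14 and 0.71 in pristane kidneys. There 1 of its 7 genes rose, beside 8.31% of all probe sets called. The list values are means over the 7 genes, and the median log2 fold change of the 7 was -0.29. The part of this list in the Mt2 values was not tested.

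**Figure D4:**
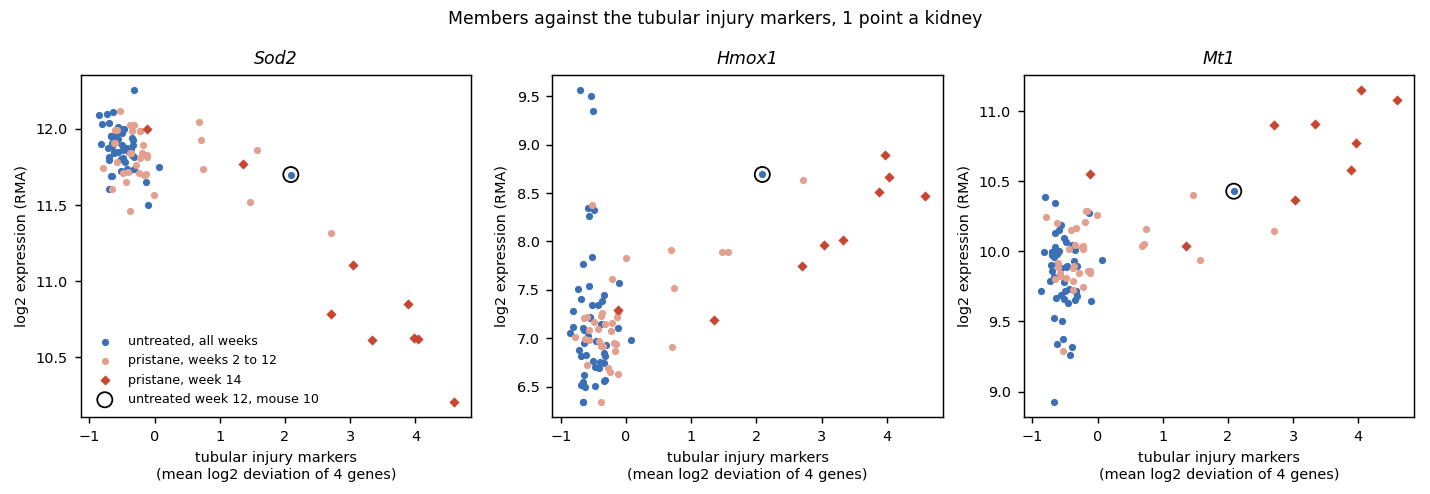
Log2 expression of Sod2, Hmox1 and Mt1 (vertical axes) against the mean log2 deviation of the tubular injury markers (horizontal axes), 1 point a kidney, in untreated kidneys (blue), pristane kidneys of weeks 2 to 12 (light red) and pristane kidneys of week 14 (red diamonds), with untreated week 12 mouse 10 circled. The 3 highest Hmox1 points, from 9.35 to 9.56, belong to untreated kidneys with few injury transcripts, and the circled kidney has Hmox1 at 8.69, Mt1 at 10.43 and Sod2 at 11.70.

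The wider pathways were read as 7 lists drawn from general knowledge, but chosen with earlier results of these data known. Their counts at week 14 stand beside the 8.31% of all probe sets that passed. Of 6 measured genes for NRF2 and its partners 1 rose, Maff, a small partner of NRF2, with a log2 fold change of 0.58 (limma's adjusted p = 0.0246), while Nfe2l2 itself had 0.21 (adjusted p = 0.264). Of 14 other NRF2 targets 2 fell, the carbonyl reductase Cbr1 by 1.19 and Osgin1 by 0.91 on the log2 scale (adjusted p = 0.0284 and 0.0117), and 12 did not pass. Of 11 genes of glutathione synthesis and use, Gpx8, a peroxidase of the endoplasmic reticulum, rose by 0.56 and the cytosolic Gpx1 fell by 0.28 (adjusted p = 0.0172 and 0.0260). Of 11 superoxide, peroxiredoxin and thioredoxin genes, Prdx4 rose by 0.66, while the extracellular Sod3 fell by 0.94 and the cytosolic Sod1 fell by 0.31 (adjusted p = 0.0141, 0.0318 and 0.0445). The median log2 fold changes of these 4 lists were 0.11, -0.10, -0.14 and -0.31. Of 6 genes of heme breakdown and 7 of zinc and metallothionein regulation, 0 passed limma's test. The MTF1 gene Mtf1 had a log2 fold change of -0.04 (adjusted p = 0.869), and Mt3, a metallothionein known from brain, had -0.03 (adjusted p = 1).

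Of 5 measured genes of the NADPH oxidase list, 3 rose at week 14. In phagocytes this enzyme makes the superoxide of the burst. On the log2 scale Rac2 rose by 1.96 (standard error 0.342), Cybb by 1.88 (0.322) and Ncf4 by 1.54 (0.321), at limma's adjusted p = 0.010, 0.00943 and 0.0187, and the list's median was 1.54. Ncf4 also rose at week 4, by 0.43 (standard error 0.0819, adjusted p = 0.0416), the only gene of the 7 pathway lists called before week 14. Rac2, Cybb and Ncf4 are expressed by macrophages and neutrophils. In the same kidneys 7 of 8 macrophage genes and 2 of 4 measured neutrophil genes rose, beside 8.31% of all probe sets called. The part of those cells was not tested.

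The genes most like the members over all 95 kidneys, by Pearson's r of their levels with groups included, were Ahcyl2 (0.911), Ak4 (0.909) and Slc13a3 (0.902) for Sod2, and Ahcyl2 (0.853), 4833439L19Rik (0.844) and Hykk (0.833) for Cat. For Mt2 they were Wfdc2 (0.874), Clic1 (0.853) and Clec2d (0.845), and for Mt1 2410006H16Rik (0.805), Mxra8 (0.797) and Clic1 (0.795). The highest values were lower for Gclm (Snrpd3, 0.766), Gpx3 (Kap, 0.737), Nqo1 (Aqp4, 0.712), Gclc (Abcc3, 0.672), Txnrd1 (Ctif, 0.632) and Hmox1 (Pdlim4, 0.613). The points share weeks and treatment, so these values describe the pattern and are not a test.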

How the data were processed

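Kidney RNA of 95 SNF1 mice was hybridized to HT MG-430 PM arrays of Affymetrix. The authors normalized the intensities with RMA (Partek is also named in the submitters' processing notes) and deposited log2 values, whose background correction and summarization were not redone here. RMA sets a common scale over arrays, so that only relative levels can be compared. Of 45141 probe sets, 104 controls were left out. Genes were named from the array annotation (28898 probe sets with 1 symbol, 551 with several, 15588 not listed), and each gene was read from its probe set of highest mean across arrays. Mt2 was named through a supplementary list of the study.

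Groups and mouse numbers came from the labels. Each mouse gave 1 array, and the labels do not tie a mouse to 1 of the study's independent experiments. Pristane and untreated kidneys of each week were compared with limma 3.58.1 in R 4.3.3, whose empirical Bayes test gave every p-value of a group comparison, adjusted by Benjamini-Hochberg over 45037 probe sets and called at an adjusted p under 0.05 whatever the fold change. Interaction contrasts and F tests used limma as well. Pairs were tested in Python 3.11.15 by two-sided permutation within groups (100000 resamples). The scripts were tested on simulated data. Promoters were RefSeq sequences of build GRCm38.p6.

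The genes named were all members, up to 3 genes of each pathway list with the largest change among those called at week 14, genes called earlier, single markers and the most alike genes. The members and lists were chosen with earlier results of these data known. Alternatives were array centring, quantile normalization, a filter at the 40th percentile, other samples or controls in the fit, a trended robust fit, a replicate block, weights per group, stricter rules, the mean of a gene's probe sets, an adrenal covariate and leaving out each mouse. Leaving out whole weeks, the marker relations and the pairs without pristane week 14 were added after the data were seen. Mouse numbers were not taken to pair mice, since the labels do not say so and at no week did all pairs with the same number deviate together. This check cannot exclude that some mice were paired.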

Additional observations from a re-analysis of the deposited data

Results flagged for a closer look

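In 99 groups of 1 gene, 5 single kidneys lay far from the others of their group by Dixon's test, and chance gives such a kidney in about 5% of groups. Nqo1 was highest in pristane week 4 mouse 6 at 9.58, with the nearest kidney at 9.20. Gclm was highest in untreated week 4 mouse 8 at 9.69 (nearest 9.30), the kidney that also had Hmox1 at 9.35. Untreated week 8 mouse 2 was lowest for Txnrd1 at 10.8 (nearest 11.1) and for Mt1 at 8.93 (nearest 9.63), and its median correlation with the other arrays of its group was 0.983. Gpx3 was lowest in pristane week 2 mouse 3 at 13.7 (nearest 13.9).

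The effect of pristane at week 14 differed from that at week 2 by limma's interaction contrast for Hmox1, by 1.28 (adjusted p = 0.0108), for Nqo1, by -0.81 (adjusted p = 0.000995), for Cat, by -0.54 (adjusted p = 0.0466), and for Sod2, by -0.79 (adjusted p = 0.0232). By its other probe sets Sod2 did not pass this contrast.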

How the results depend on the processing

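The count of genes called at week 14, 3 of 9, where 8.31% of all probe sets passed, was 6 with all groups in a single fit (20.7% of all probe sets), 5 with a filter at the 40th percentile (23.2% of those kept), 8 with untreated mice of all weeks as controls (30.1%), 6 with weights per group (15.5%), 1 (Hmox1) with a fold change over 2 (2.64%), 0 at an adjusted p under 0.01 (0.799%), 1 (Nqo1) with the adrenal covariate (1.70%), and 0 to 5 when 1 mouse was left out. It was 5 without pristane mouse 1 or 2 (14.3% and 16.2% of all probe sets), 0 without untreated mouse 3 (1.87%), 1 (Nqo1) without any other untreated mouse or pristane mouse 3, 4, 5, 6, 7 or 9 (2.06% to 4.70%), and 2 (Hmox1 and Nqo1) without pristane mouse 8 (7.13%). With the replicate block it was 0 (0% of all probe sets), but the labels do not say that mouse numbers pair the mice. Of the same-numbered pairs, 5 of 9, 3 of 9, 3 of 8, 1 of 8 and 2 of 5 deviated together (r over 0.1) at weeks 2, 4, 8, 12 and 14, which cannot exclude that some mice were paired. The block moved no count at weeks 2 to 12. With untreated mice of all weeks as controls, 1 gene was called at week 2 (Sod2, beside 2.46% of all probe sets) and 1 at week 12 (Nqo1, beside 4.92%), which a single fit also called at week 12 (1, beside 2.10%). For week 14 against 12, where 0 were called, the filter called 1 (4.55% of those kept), a single fit 2 (11%), and leaving out 1 mouse 0 to 1. For week 14 against 2, the 4 became 1 at an adjusted p under 0.01 and 3 to 5 with 1 mouse left out. Over untreated weeks the 2 became 1 at an adjusted p under 0.01, 4 with the mean of probe sets, 0 without week 0, 1 without week 14, and 2 to 3 with 1 mouse left out. Over pristane weeks the 8 became 1 without week 14, and 7 to 9 with 1 mouse left out. In untreated kidneys alone 7 pairs passed, of which 4 were among the 14. No log2 fold change at week 14 turned its direction in any of 108 values under other settings or 126 with 1 mouse left out, of which 15 and 4 gained and 10 and 24 lost a call. The causes were not tested. With 5 untreated kidneys at week 14, the calls of Hmox1 and Sod2 depend on single mice, and probe signal over background cannot be read from RMA values.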
